A study of Homo sapiens with 6 samples.

Results

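The genes described here encode the enzymes, carriers and electron acceptors of fatty acid oxidation in mitochondria and peroxisomes, together with the peroxins that build peroxisomes. They were taken by symbol from the deposited table of read counts, in which all 49 listed genes were found among 27685 genes. Of the 49, 20 were classed as mitochondrial, 24 as peroxisomal and 5 as dual or other, since CRAT, MLYCD, ECI2 and AMACR have forms in both organelles and CPT1C is a protein of the endoplasmic reticulum. SZ95, a human sebaceous gland cell line immortalized with a viral large T antigen, was treated for 24 h with 20% ethanol as vehicle (control, 3 libraries) or with PM2.5 at 100 μg/mL (3 libraries). The PM2.5 was ambient particulate matter resuspended in 20% ethanol, so both groups received ethanol, and the medium listed for the treatment names no serum. All libraries come from this wild-type line, and whether the 3 samples of a group were separate cultures is not given in the sources used here. The spread behind each p-value is therefore that between libraries and could be technical.

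Fatty acids are activated to acyl-CoA before oxidation. Long-chain acyl groups then pass into mitochondria through the carnitine shuttle, whose outer-membrane enzyme CPT1 is inhibited by malonyl-CoA. Inside, each turn of the beta-oxidation spiral uses an acyl-CoA dehydrogenase, an enoyl-CoA hydratase, a hydroxyacyl-CoA dehydrogenase and a thiolase, and the electrons of the dehydrogenases pass through ETF to the respiratory chain. Peroxisomes shorten very long, branched and dicarboxylic acids with oxidases in place of dehydrogenases, remove carbons from phytanic acid by alpha-oxidation, and hand the shortened products to mitochondria as carnitine esters. Sebocytes make and store large amounts of lipid, and these routes are among those that consume it.

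Library totals ran from 56460553 to 71080000 counts. Levels are given as CPM, with the library size multiplied by its TMM factor. edgeR's filter on low counts left 16049 genes for testing. A gene was called higher or lower with PM2.5 at an adjusted p under 0.05 from edgeR's quasi-likelihood test, adjusted over all tested genes. By this rule 43.6% of all tested genes were called, 21.7% higher and 22% lower, so a call is common in this comparison and counts of members are read against these shares. Of 10 sebocyte markers, 3 were under 1 CPM in every library, 3 were higher and 3 lower with PM2.5, and their sum was 2328 to 2405 CPM in control and 2604 to 2969 CPM in PM2.5 libraries. Without SCD, the stearoyl-CoA desaturase, the sum was 1839 to 1909 CPM in control and 1455 to 1773 CPM in PM2.5 libraries. SCD was at 482 ± 50.7 CPM in control against 1191 ± 39.8 CPM with PM2.5 (SD, n = 3) and FADS2, a desaturase of sebum lipids, at 259 ± 11.4 CPM in control against 424 ± 17.3 CPM with PM2.5 (SD, n = 3), both higher. SOX9, a transcription factor of the gland, was lower at 69.2 ± 0.133 CPM in control against 38.4 ± 1.62 CPM with PM2.5 (SD, n = 3). KRT7 was at 1411 ± 48.6 CPM in control against 1030.5 ± 146 CPM with PM2.5 (SD, n = 3), MUC1 at 115 ± 1.21 CPM in control against 104 ± 1.55 CPM with PM2.5 (SD, n = 3) and PPARG at 15.2 ± 0.722 CPM in control against 21.4 ± 1.02 CPM with PM2.5 (SD, n = 3), while MC5R and AWAT2 were at or near 0. CDH5, an endothelial cadherin, was also present at 191 ± 12.3 CPM in control against 84.1 ± 5.51 CPM with PM2.5 (SD, n = 3), with PECAM1 under 1 CPM in every library. The summed level of the 3 endothelial markers was 183 to 207 CPM in control and 80.3 to 91.3 CPM in PM2.5 libraries, with CDH5 and VWF lower. Of the keratinocyte markers, KRT14 (log2 fold change -1.50, adjusted p = 0.000283 in edgeR) and KRT10 (-0.36, adjusted p = 0.00664) were lower and KRT1 was near 0. KRT14 was low, at 4.26 ± 0.608 CPM in control against 1.51 ± 0.218 CPM with PM2.5 (SD, n = 3). KRT5, at 233 ± 10.7 CPM in control against 252 ± 17.6 CPM with PM2.5 (SD, n = 3), was not called (0.11, adjusted p = 0.173 in edgeR). The 4 keratinocyte markers summed to 249.8 to 269 CPM in control and 259 to 292 CPM in PM2.5 libraries, most of it KRT5. The fibroblast marker COL1A1 was higher (0.27, adjusted p = 0.00778 in edgeR), with COL1A2, PDGFRA and DCN at or near 0. No melanocyte or leukocyte marker was called. The part of these markers in the results below was not tested.

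Of the 46 members tested, 16 were higher and 3 lower with PM2.5 and 27 did not pass the test. In RNA from whole cultures, a change in the number of cells that express a gene and a change in its RNA per cell cannot be told apart. The called members are 41.3% of those tested, beside 43.6% of all tested genes, so the members were not called more often than genes in general. The split by direction was 34.8% higher and 6.52% lower, beside 21.7% and 22% of all tested genes. Their median log2 fold change was 0.12, against 0.004 for all tested genes. Most changes were small: 5 called members moved by more than 1.5-fold, 10.9% of those tested, beside 13.1% of all tested genes. Those 5 were ACOXL, EHHADH, PEX7, ACAT1 and CROT. ACAT1 lay near the limit at 1.503-fold. Its log2 fold change of 0.59 ran from 0.49 to 0.67 in the alternative settings, so its place among the 5 depends on the setting. When libraries were scaled by their size alone, 26 members were higher and 2 lower, and 65.2% of all called genes were higher against 49.7% with TMM. ACADL, ABCD2 and ACOX2 did not pass the filter on low counts. ACOX2, a branched-chain acyl-CoA oxidase, had 0 counts in every library. ACADL, the long-chain acyl-CoA dehydrogenase, had 0 to 7 counts per library and ABCD2, a peroxisomal fatty acyl-CoA transporter, had 0 to 4.

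**Figure D1:**
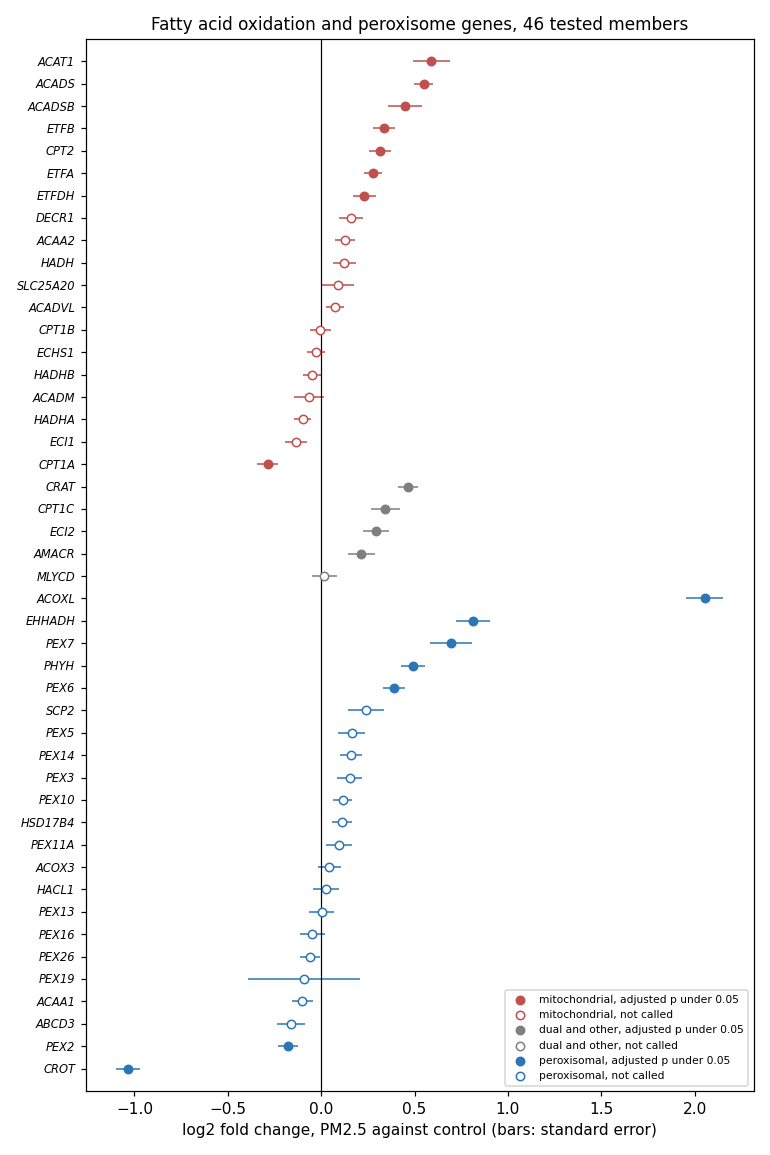
Log2 fold change of each tested member (x axis, PM2.5 against control, bars are the standard error), with 1 gene per line, grouped as mitochondrial, dual and other, and peroxisomal. Filled points have an edgeR adjusted p under 0.05 and open points do not. ACOXL at 2.05 and CROT at -1.03 lie far outside the other members, which run from -0.29 to 0.81.

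Levels between genes were compared per length, as CPM per kb of transcript, for the 48 members with a transcript length. ACADVL, the very-long-chain acyl-CoA dehydrogenase that starts the mitochondrial spiral, stood highest in control cells at 157 CPM per kb. It was followed by the hydratase ECHS1 at 91.7, and by HADHA at 77.9 and HADHB at 67.7 CPM per kb, which encode the subunits of the trifunctional protein. The highest peroxisomal genes were HSD17B4 at 49.5, ABCD3 at 49.2 and SCP2 at 46.99 CPM per kb. The lowest tested member was MLYCD at 0.989 CPM per kb, and the 3 members that were not tested lay below it. Next above it, ACOXL had 1.45, ACADSB 2.86, CPT1C 2.96 and EHHADH 3.84 CPM per kb in control cells. The calls fell mostly on genes of low level. Of 14 members with a mean of at least 50 CPM over the 6 libraries, 2 were higher and 1 lower, 21.4% called, beside 47.9% of all tested genes of that level. Of 16 members between 20 and 50 CPM, 4 were higher and 2 lower, 37.5% beside 46.1%. Of 16 members under 20 CPM, 10 were higher and none lower, 62.5% called beside 39.7%. These level limits were chosen after the values were seen.

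**Figure D2:**
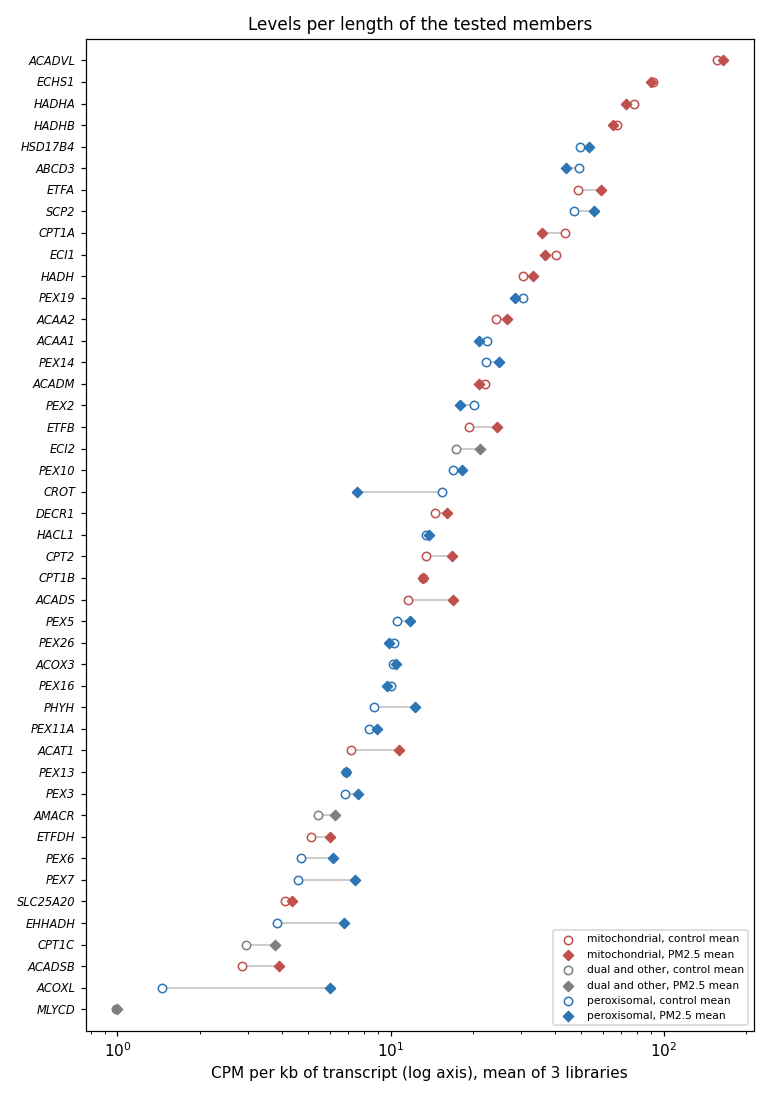
Mean level of each tested member with a transcript length, in CPM per kb on a log axis, for control (open circles) and PM2.5 libraries (filled diamonds), ordered by the control level. ACADVL, at the top, has 157 and 165.2 CPM per kb, while ACOXL, near the bottom, has 1.45 and 6.01.

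In the carnitine shuttle the entry and the inner step moved in opposite directions. CPT1A (Gene ID 1374), the malonyl-CoA-sensitive carnitine palmitoyltransferase of the outer membrane, was at 163, 168 and 185 CPM in the control libraries and 145, 137 and 140.4 CPM in the PM2.5 libraries. The groups did not overlap, and CPT1A fell by 18.1%, with a log2 change of -0.29 (SE 0.057, adjusted p = 0.00483 in edgeR). CPT2 (Gene ID 1376), which returns the acyl group to CoA inside the mitochondrion, was at 40.6, 41.1 and 44.01 CPM in the control libraries and 52.4, 54.4 and 49.5 CPM in the PM2.5 libraries. CPT2 was higher in every PM2.5 library and rose 1.24-fold, with a log2 ratio of 0.31 (SE 0.058, edgeR adjusted p = 0.00346). The ratio of CPT1A to CPT2, each per kb, was 3.15, 3.21 and 3.30 in control and 2.17, 1.98 and 2.23 in PM2.5 libraries, without overlap. SLC25A20 (Gene ID 788), the carrier that exchanges acylcarnitine for carnitine across the inner membrane, was at 7.18, 7.602 and 8.33 CPM in the control libraries and 7.65, 8.37 and 8.603 CPM in the PM2.5 libraries. The groups overlapped for SLC25A20, with a change of 0.09 on the log2 scale (SE 0.087, edgeR adjusted p = 0.433).

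CRAT (Gene ID 1384), which moves acetyl and other short acyl groups onto carnitine, had 50.99, 48.04 and 51.8 CPM in the control libraries and 71.5, 70.2 and 66.6 CPM in the PM2.5 libraries, and these groups did not overlap. It rose with a log2 change of 0.47 (SE 0.053, adjusted p = 0.000398 in edgeR). CPT1C (Gene ID 126129), a neuronal relative with little transferase activity, was low, at 8.84, 7.71 and 8.19 CPM in the control libraries and 10.4, 10.2 and 10.9 CPM in the PM2.5 libraries. It was nevertheless higher in each PM2.5 library, with a log2 ratio of 0.34 (SE 0.077, edgeR adjusted p = 0.00851). CPT1B (Gene ID 1375), the muscle form of the outer-membrane enzyme, differed little at 34.5 ± 1.87 CPM in control against 34.4 ± 0.251 CPM with PM2.5 (SD, n = 3), a change of -0.01 on the log2 scale (SE 0.056, edgeR adjusted p = 0.94). CPT1B shares exons with the readthrough locus CHKB-CPT1B, which had 13.7, 25.5 and 23.9 CPM in the control libraries and 16.3, 2.81 and 11.2 CPM in the PM2.5 libraries. That locus spread widely within both groups and was not called (log2 fold change -1.08, adjusted p = 0.12 in edgeR). With its counts added to CPT1B, the log2 fold change was -0.32 (edgeR adjusted p = 0.0768), so the CPT1B value depends on how shared reads were divided. MLYCD, which removes the CPT1 inhibitor malonyl-CoA, was at 12.9 ± 0.435 CPM in control against 13.04 ± 0.636 CPM with PM2.5 (SD, n = 3) (log2 fold change 0.02, adjusted p = 0.867 in edgeR).

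Among the acyl-CoA dehydrogenases the enzymes for short chains rose, and those for medium and very long chains did not pass the test. ACADS (Gene ID 35), the short-chain enzyme, had 19.5, 19.1 and 19.5 CPM in the control libraries and 28.1, 29.04 and 27.7 CPM in the PM2.5 libraries. The groups were far apart relative to their spread, and ACADS rose 1.46-fold with a log2 change of 0.55 (SE 0.052, adjusted p = 0.000213 in edgeR). ACADSB (Gene ID 36), which acts on short branched acyl-CoA from isoleucine, had 17.7, 18.3 and 14.3 CPM in the control libraries and 23.1, 22.5 and 23.02 CPM in the PM2.5 libraries, again with every PM2.5 library above every control library. ACADSB rose with a log2 ratio of 0.45 (SE 0.092, edgeR adjusted p = 0.00573). The medium-chain enzyme ACADM (Gene ID 34) had 53.3, 56.9 and 45.9 CPM in the control libraries and 48.3, 48.6 and 52.3 CPM in the PM2.5 libraries, which overlapped. Its change of -0.07 on the log2 scale (SE 0.081, edgeR adjusted p = 0.546) did not pass. ACADVL (Gene ID 37), the most abundant member, had 333, 348 and 367 CPM in the control libraries and 369, 364 and 371 CPM in the PM2.5 libraries. PM2.5 replicate 2 of ACADVL was below control replicate 3, with a log2 change of 0.07 (SE 0.047, adjusted p = 0.238 in edgeR). A rise of ACADVL was called, among the settings run, only when libraries were scaled by size alone (log2 fold change 0.16, edgeR adjusted p = 0.0201).

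All 3 genes that take the electrons of these dehydrogenases were higher with PM2.5, beside 21.7% of all tested genes. ETFA (Gene ID 2108) and ETFB (Gene ID 2109) encode the subunits of electron transfer flavoprotein. ETFA was at 92.5, 84.8 and 87.6 CPM in the control libraries and 106, 109 and 107 CPM in the PM2.5 libraries, and it rose with a log2 ratio of 0.28 (SE 0.048, edgeR adjusted p = 0.00256). ETFB was at 45.7, 41.7 and 42.1 CPM in the control libraries and 55.4, 51.9 and 56.5 CPM in the PM2.5 libraries, and it rose with a change of 0.34 on the log2 scale (SE 0.058, edgeR adjusted p = 0.0026). Neither gene's groups overlapped. The per-kb ratio of ETFA to ETFB was 2.48 to 2.55 in control and 2.31 to 2.57 in PM2.5 libraries, and these ranges overlapped. ETFDH (Gene ID 2110), the oxidoreductase that passes the electrons on to ubiquinone, was at 13.6, 13.5 and 12.7 CPM in the control libraries and 15.8, 15.8 and 15.1 CPM in the PM2.5 libraries. Its groups did not overlap either, with a log2 change of 0.23 (SE 0.062, adjusted p = 0.0182 in edgeR). Leaving out PM2.5 replicate 1 or 2 ended the ETFDH call (edgeR adjusted p = 0.0619 and 0.0531), and its p ran from 0.0058 to 0.0619 in the settings tried.

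Of the 6 genes for the remaining steps of the mitochondrial spiral, 1 was called, 16.7% beside 43.6% of all tested genes. ACAT1 (Gene ID 38), the mitochondrial thiolase that handles acetoacetyl-CoA in ketone body and isoleucine metabolism, had 13.4, 12.5 and 11.8 CPM in the control libraries and 21.6, 17.9 and 17.2 CPM in the PM2.5 libraries. Each PM2.5 library exceeded each control library, and ACAT1 rose 1.503-fold with a log2 ratio of 0.59 (SE 0.099, edgeR adjusted p = 0.00232). HADHA (Gene ID 3030) carries the long-chain hydratase and hydroxyacyl-CoA dehydrogenase activities of the trifunctional protein, and HADHB (Gene ID 3032) carries its thiolase. HADHA had 229, 234 and 248 CPM in the control libraries and 218, 221 and 224 CPM in the PM2.5 libraries. All 3 PM2.5 libraries lay below the control libraries, but the change of -0.10 on the log2 scale (SE 0.045, edgeR adjusted p = 0.111) did not pass. HADHB was at 138 ± 5.05 CPM in control against 134 ± 5.17 CPM with PM2.5 (SD, n = 3) and its groups overlapped, with a log2 change of -0.05 (SE 0.049, adjusted p = 0.453 in edgeR). The genes start on opposite strands 307 bases apart in RefSeq's GRCh38.p14 annotation of chromosome 2. Their per-kb ratio was 1.12 to 1.17 in control and 1.07 to 1.16 in PM2.5 libraries. The hydratase ECHS1 was at 148 ± 4.24 CPM in control against 146 ± 5.88 CPM with PM2.5 (SD, n = 3) (log2 fold change -0.03, adjusted p = 0.692 in edgeR). For HADH, the dehydrogenase for medium and short chains, the log2 fold change was 0.12, adjusted p = 0.139, and for ACAA2, the general mitochondrial thiolase, it was 0.13, adjusted p = 0.0911, both from edgeR. Without control replicate 3, ACAA2 passed (log2 fold change 0.18, edgeR adjusted p = 0.0119).

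Unsaturated fatty acids need further enzymes to shift or reduce their double bonds. The isomerase ECI2 (Gene ID 10455), which has mitochondrial and peroxisomal forms, was at 24.2, 23.7 and 25.3 CPM in the control libraries and 32.02, 30.4 and 27.4 CPM in the PM2.5 libraries. The groups did not overlap, and ECI2 rose with a log2 ratio of 0.30 (SE 0.069, edgeR adjusted p = 0.0102). ECI1, the mitochondrial isomerase, was at 50.2 ± 2.798 CPM in control against 45.7 ± 1.47 CPM with PM2.5 (SD, n = 3) with all PM2.5 libraries below the control libraries, but the log2 fold change of -0.14, adjusted p = 0.0896 in edgeR did not pass. For DECR1, the mitochondrial dienoyl-CoA reductase, the direction was the opposite, with all PM2.5 libraries above the control libraries and a log2 fold change of 0.16, adjusted p = 0.08 in edgeR. ECI1 and ECI2 thus differed in sign, a difference that was not tested.

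**Figure D3:**
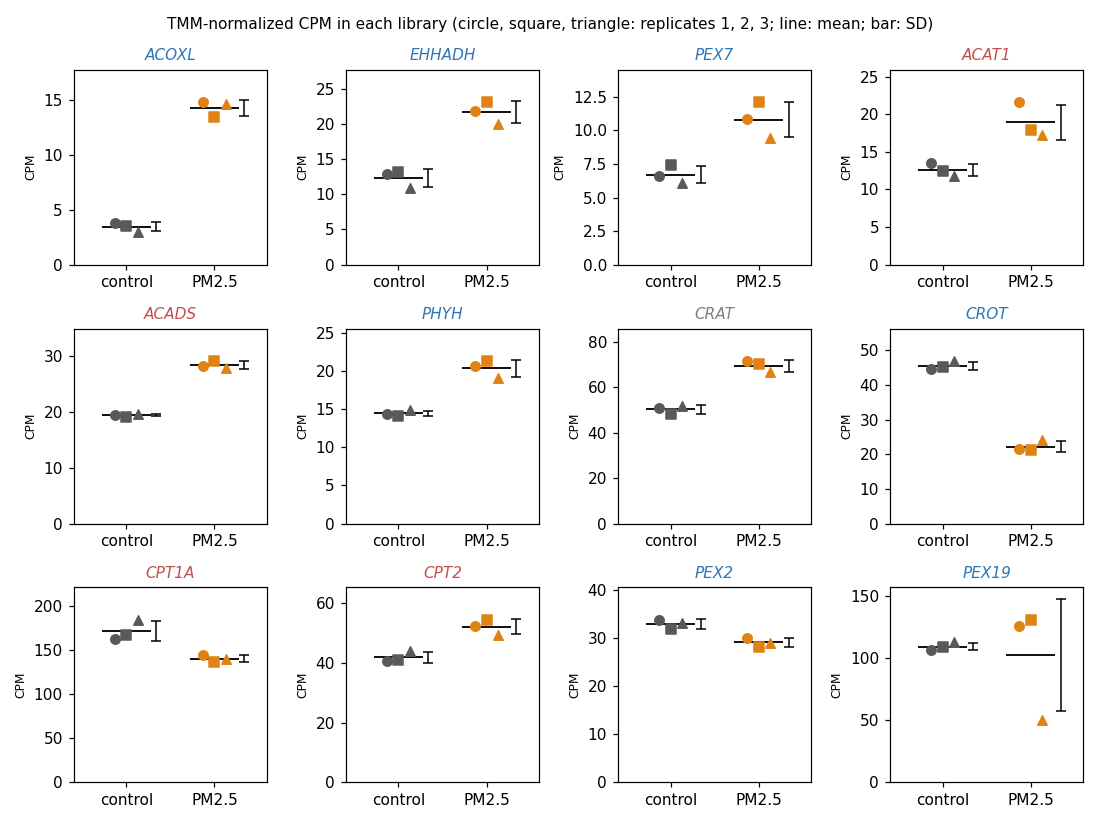
TMM-normalized CPM of 12 members in each library, with control on the left and PM2.5 on the right of each panel, replicates 1, 2 and 3 as circle, square and triangle, the line at the mean and the bar showing the SD, with names in red for mitochondrial, blue for peroxisomal and gray for dual genes. The groups are apart in every panel but that of PEX19, where PM2.5 replicate 3 at 50.4 CPM lies below all other libraries.

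The largest rise and the largest fall among the members were both peroxisomal. ACOXL (Gene ID 55289) encodes a relative of the peroxisomal acyl-CoA oxidases whose own substrates are less well described. ACOXL was at 3.78, 3.55 and 2.998 CPM in the control libraries and 14.8, 13.4 and 14.6 CPM in the PM2.5 libraries. The lowest PM2.5 library was several times the highest control library, and ACOXL rose 4.15-fold, with a change of 2.05 on the log2 scale (SE 0.099, edgeR adjusted p = 1.97e-05). Its call held in all 16 alternative settings, with a log2 fold change between 1.96 and 2.13. An antisense gene, ACOXL-AS1, held 8 to 24 counts per library and was not called (log2 fold change -0.54, adjusted p = 0.234 in edgeR), and whether counting used the strand is not given in the sources used here. BCL2L11, the next gene on the same strand, moved the other way (-0.52, adjusted p = 0.000547 in edgeR). The other oxidase that passed the filter, ACOX3, acts on branched chains and was at 26.6 ± 1.73 CPM in control against 27.4 ± 0.325 CPM with PM2.5 (SD, n = 3), a log2 change of 0.04 (SE 0.062, adjusted p = 0.611 in edgeR).

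CROT (Gene ID 54677), the carnitine octanoyltransferase that prepares shortened acyl groups for export from peroxisomes to mitochondria, was at 44.5, 45.03 and 46.9 CPM in the control libraries and 21.5, 21.1 and 23.99 CPM in the PM2.5 libraries. Every PM2.5 library held about the same reduced level, and CROT fell by 51.2%, with a log2 ratio of -1.03 (SE 0.064, edgeR adjusted p = 3.85e-05). CROT was called lower in all 16 alternative settings. CROT and CRAT, carnitine acyltransferases of medium and short chains, changed in opposite directions (-1.03 and 0.47 on the log2 scale), each past the test. CRAT has forms in both organelles, and its counts do not separate them. ABCD3, which imports branched and dicarboxylic acyl-CoA into the peroxisome, was at 115, 116 and 95.3 CPM in the control libraries and 97.4, 98.9 and 95.2 CPM in the PM2.5 libraries. Control replicate 3 of ABCD3 lay with the PM2.5 libraries, so the groups overlapped, with a change of -0.16 on the log2 scale (SE 0.076, edgeR adjusted p = 0.119). Without control replicate 3 ABCD3 passed as lower (log2 fold change -0.25, edgeR adjusted p = 0.00276).

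The 250 bases before the start of ACOXL and CROT are printed because these genes changed most, 5′ to 3′ on the strand of the gene, from RefSeq on GRCh38.p14. The ACOXL stretch lies at chr2:110732323-110732572 on the plus strand and that of CROT at chr7:87345414-87345663 on the plus strand. Capitals mark the core GCGTG of the sites that the aryl hydrocarbon receptor (AHR) can bind, searched on both strands.
ACOXL upstream sequence: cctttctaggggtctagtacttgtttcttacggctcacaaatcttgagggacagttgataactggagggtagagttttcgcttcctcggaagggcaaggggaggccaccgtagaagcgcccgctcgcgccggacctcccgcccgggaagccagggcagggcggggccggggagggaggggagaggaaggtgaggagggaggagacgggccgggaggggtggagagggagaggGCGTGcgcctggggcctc
CROT upstream sequence: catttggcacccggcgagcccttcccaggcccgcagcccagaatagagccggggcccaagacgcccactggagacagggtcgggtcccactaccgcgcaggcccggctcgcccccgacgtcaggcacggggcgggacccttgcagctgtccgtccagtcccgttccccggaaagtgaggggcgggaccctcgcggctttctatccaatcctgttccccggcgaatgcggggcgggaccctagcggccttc
The ACOXL stretch holds 1 such core, 14 to 18 bases before the start, and the CROT stretch holds none. A stretch was found for 40 of the 49 members, at 55 start sites. The core GCGTG occurred in 25 of the 55, 45.5%, against 32.2% of all 35116 start sites of the table. The 25 belong to 23 genes, and stretches of PEX19 overlap and count the same core more than once, so the stretches are not all separate. The half-site AGGTCA, which PPAR and ERR receptors recognize, was in 0 of the 55 and in 12.1% of all, and the PPAR direct repeat AGGTCANAGGTCA, made of that half-site, was in none of the 55 and in 0.0171% of all. The ERR site TCAAGGTCA, which contains the half-site, was in none of the 55 and in 0.319% of all. The E-box CACGTG was in 1 (PEX10), 1.82% against 6.34% of all. The NRF1 site, a GC-rich pattern of 10 bases, was in 2 (ABCD3 and ETFB), 3.64% against 5.07%. The antioxidant response core TGACNNNGC was in 6, 10.9% against 10.9%. These are matches of letters in a short window, not sites shown to be bound.

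Peroxisomal beta-oxidation continues with either of a pair of bifunctional enzymes. EHHADH (Gene ID 1962), the enzyme used for dicarboxylic acids, was at 12.8, 13.2 and 10.9 CPM in the control libraries and 21.8, 23.1 and 19.96 CPM in the PM2.5 libraries. The PM2.5 libraries stood clear of the control libraries, and EHHADH rose 1.76-fold with a log2 change of 0.81 (SE 0.091, adjusted p = 0.000385 in edgeR). HSD17B4 (Gene ID 3295), the enzyme used for very long and branched chains, was at 128, 126 and 117 CPM in the control libraries and 134, 139 and 127 CPM in the PM2.5 libraries. The groups of HSD17B4 overlapped, with a log2 ratio of 0.11 (SE 0.054, edgeR adjusted p = 0.13). The thiolase ACAA1 (Gene ID 30) was at 40.8, 38.7 and 41.8 CPM in the control libraries and 38.8, 35.7 and 38.6 CPM in the PM2.5 libraries. These overlapped as well, with a change of -0.10 on the log2 scale (SE 0.057, edgeR adjusted p = 0.188). SCP2, which encodes the thiolase for branched chains and a sterol carrier protein, was at 85.2, 102 and 79.9 CPM in the control libraries and 106, 113 and 96.4 CPM in the PM2.5 libraries. Control replicate 2 of SCP2 exceeded the lowest PM2.5 library, with a log2 change of 0.24 (SE 0.097, adjusted p = 0.0751 in edgeR), and without control replicate 2 SCP2 passed (log2 fold change 0.35, edgeR adjusted p = 0.0138). SCP2 also passed in DESeq2's Wald test (adjusted p = 0.0276).

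Phytanic acid, a branched acid from the diet, is first shortened by alpha-oxidation. PHYH (Gene ID 5264), the phytanoyl-CoA hydroxylase that starts it, was at 14.4, 14.1 and 14.8 CPM in the control libraries and 20.6, 21.3 and 19.01 CPM in the PM2.5 libraries. No PM2.5 library reached down to the control range, and PHYH rose 1.41-fold with a log2 ratio of 0.49 (SE 0.065, edgeR adjusted p = 0.000784). HACL1, the lyase of the next step, was at 23.98 ± 0.617 CPM in control against 24.4 ± 1.89 CPM with PM2.5 (SD, n = 3), a change of 0.03 on the log2 scale (SE 0.068, edgeR adjusted p = 0.783). AMACR, the racemase that lets branched acyl-CoA enter beta-oxidation, was at 15.98, 15.5 and 15.9 CPM in the control libraries and 18.5, 19.6 and 16.8 CPM in the PM2.5 libraries. AMACR was higher in each PM2.5 library by a small margin, with a log2 change of 0.21 (SE 0.072, adjusted p = 0.0414 in edgeR). Leaving out control replicate 1, 2 or 3 ended its call (edgeR adjusted p = 0.0876, 0.108 and 0.0668), as did leaving out PM2.5 replicate 1 or 2 (adjusted p in edgeR = 0.0919 and 0.102), and its p ran from 0.00363 to 0.108 in the settings tried. The readthrough locus C1QTNF3-AMACR, which shares exons with AMACR, had 1, 3 and 0 counts in control and 97, 11 and 119 counts in PM2.5 libraries. With those counts added to AMACR, the log2 fold change was 0.31 (edgeR adjusted p = 0.00363).

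Of the 12 peroxins, 2 were higher, 1 lower and 9 did not pass, 25.0% called, beside 43.6% of all tested genes. PEX7 (Gene ID 5191), the receptor for matrix enzymes with an amino-terminal targeting signal, among them PHYH and ACAA1, was at 6.59, 7.41 and 6.11 CPM in the control libraries and 10.9, 12.1 and 9.47 CPM in the PM2.5 libraries. The groups did not overlap, and PEX7 rose 1.62-fold with a log2 ratio of 0.69 (SE 0.11, edgeR adjusted p = 0.00197). PEX5 (Gene ID 5830), the receptor for the more common carboxy-terminal signal, was at 27.8, 25.4 and 28.6 CPM in the control libraries and 32.5, 28.6 and 30.5 CPM in the PM2.5 libraries. All PM2.5 libraries of PEX5 were above the control libraries by a narrow margin, with a change of 0.16 on the log2 scale (SE 0.070, edgeR adjusted p = 0.0955), and PEX5 passed without PM2.5 replicate 2 (log2 fold change 0.22, edgeR adjusted p = 0.0481). PEX6 (Gene ID 5190), an ATPase of the complex that pulls PEX5 back out of the membrane, was at 14.2, 14.2 and 15.01 CPM in the control libraries and 19.6, 18.98 and 18.4 CPM in the PM2.5 libraries. It was higher in all PM2.5 libraries and rose with a log2 change of 0.39 (SE 0.060, adjusted p = 0.00153 in edgeR). PEX26, the membrane anchor of PEX6, was at 40.4 ± 2.16 CPM in control against 38.8 ± 0.632 CPM with PM2.5 (SD, n = 3) (log2 fold change -0.06, adjusted p = 0.414 in edgeR).

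PEX2 (Gene ID 5828), a ring-finger ubiquitin ligase of the import machinery, was at 33.8, 31.9 and 33.3 CPM in the control libraries and 30.2, 28.3 and 29.02 CPM in the PM2.5 libraries. The PM2.5 libraries lay just below the control libraries, and PEX2 fell by 11.7%, with a log2 ratio of -0.18 (SE 0.054, edgeR adjusted p = 0.0278). Leaving out control replicate 1 or any PM2.5 replicate ended the PEX2 call (edgeR adjusted p = 0.0919 and then 0.0506, 0.104 and 0.0741 for PM2.5 replicates 1, 2 and 3). It also ended when TMM was replaced by library size alone (edgeR adjusted p = 0.153) or by upper-quartile factors (0.0625), and its p ran from 0.0249 to 0.153 in the settings tried. For its partner PEX10 the log2 fold change was 0.12, adjusted p = 0.102 in edgeR, with all PM2.5 libraries above the control libraries. Of the docking proteins, PEX13 was at 30.8 ± 1.66 CPM in control against 30.8 ± 1.74 CPM with PM2.5 (SD, n = 3) (log2 fold change 0.00, adjusted p = 0.98 in edgeR) and PEX14 at 44.4 ± 3.05 CPM in control against 49.6 ± 1.05 CPM with PM2.5 (SD, n = 3) (log2 fold change 0.16, adjusted p = 0.0631 in edgeR). PEX14 passed without control replicate 3 (log2 fold change 0.20, edgeR adjusted p = 0.0296). PEX3 and PEX16, which insert membrane proteins with PEX19, had log2 fold changes of 0.15, adjusted p = 0.0996, and -0.05, adjusted p = 0.587, and PEX11A, which takes part in peroxisome division, had 0.10, adjusted p = 0.291, all from edgeR.

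PEX19 (Gene ID 5824), the chaperone that carries newly made membrane proteins to the peroxisome, stood apart in 1 library. PEX19 was at 107, 109 and 113 CPM in the control libraries and 126, 131 and 50.4 CPM in the PM2.5 libraries. PM2.5 replicates 1 and 2 were above all control libraries and PM2.5 replicate 3 was below all of them, at 0.399 of the lower of the other PM2.5 libraries. Of 10385 genes with a mean of at least 10 CPM, 9 had a smaller ratio in that library. With all libraries PEX19 was not called, with a change of -0.09 on the log2 scale (SE 0.3, edgeR adjusted p = 0.822). Without PM2.5 replicate 3 its sign turned and it was called higher (log2 fold change 0.24, edgeR adjusted p = 0.00801). DCAF8, a neighbouring gene on the same strand, was at 170.1, 172 and 169.5 CPM in PM2.5 replicates 1, 2 and 3 and showed no such drop. PM2.5 replicate 3 as a whole did not stand apart in this way, since 15 genes there were under 50% of both other libraries of their group, within the 13 to 25 found for the 6 libraries.

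Mitochondrial and peroxisomal genes were set side by side, as a description, since genes are not replicates. Of 19 mitochondrial genes tested, 7 were higher and 1 lower, 42.1% called, and of 22 peroxisomal genes 5 were higher and 2 lower, 31.8% called. Of all tested genes, 43.6% were called, so neither class was called more often than genes in general. The shares higher and lower were 36.8% and 5.26% for mitochondrial and 22.7% and 9.09% for peroxisomal genes. All tested genes had 21.7% and 22%. Of the dual or other genes, 4 of 5 were higher. The median log2 fold change was 0.12 for mitochondrial and 0.10 for peroxisomal genes. Their ranges differed more, from -0.29 to 0.59 for mitochondrial and from -1.03 to 2.05 for peroxisomal genes. The summed level of the mitochondrial genes was 1547, 1561 and 1637 CPM in control and 1609, 1626 and 1622 CPM in PM2.5 libraries, which overlapped. ACADVL, HADHA and CPT1A made up 22.1%, 15% and 10.9% of the control sum. The summed level of the peroxisomal genes was 880.3, 894 and 862 CPM in control and 939, 945 and 831 CPM in PM2.5 libraries. The low value of PM2.5 replicate 3 in that sum includes the low PEX19 value of the same library. The groups did not overlap in 27 of the 46 tested members, 58.7%, beside 56.3% of all tested genes. In 22 members, 47.8%, the PM2.5 libraries were on the higher side, and in 5, 10.9%, on the lower side, where all tested genes had 28.1% on each.

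Genes that feed this pathway were taken from further lists. Of 15 tested genes of fatty acid uptake, binding and activation, 7 were higher (46.7%) and 2 lower (13.3%). Of all tested genes, 21.7% were higher and 22% lower. The median log2 fold change of the 15 genes was 0.16. The 5 long-chain acyl-CoA synthetases were all higher, with log2 fold changes of 0.82 for ACSL1, 0.53 for ACSL3, 0.56 for ACSL4, 0.44 for ACSL5 and 1.10 for ACSL6. These enzymes activate long-chain fatty acids, and ACSL3, ACSL4 and ACSL6 were named after their values were seen. ACSL6 was low, at 1.12 ± 0.328 CPM in control against 2.37 ± 0.402 CPM with PM2.5 (SD, n = 3). ACSL1 (Gene ID 2180) was at 74.8, 54.98 and 74.6 CPM in the control libraries and 121, 123 and 116 CPM in the PM2.5 libraries, with a log2 change of 0.82 (SE 0.11, adjusted p = 0.000849 in edgeR). ACSL4 did not pass when control replicate 3 or PM2.5 replicate 2 or 3 was left out (edgeR adjusted p = 0.0528, 0.0958 and 0.0774). DBI, the acyl-CoA binding protein, also rose (0.40, adjusted p = 0.00112 in edgeR). SLC22A5 (Gene ID 6584), the plasma membrane carnitine transporter, was at 62.6, 61.2 and 69.4 CPM in the control libraries and 37.4, 35.1 and 38.2 CPM in the PM2.5 libraries. It fell by 42.7% without overlap, with a log2 ratio of -0.80 (SE 0.064, edgeR adjusted p = 0.000107). The fatty acid transporter SLC27A4 fell as well (-0.46, adjusted p = 0.00348 in edgeR). CD36 and SLC27A6, other uptake genes, were under 1 CPM and FABP4 had 0 counts.

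The enzymes that make malonyl-CoA rose. ACACA (Gene ID 31), the cytosolic acetyl-CoA carboxylase of fatty acid synthesis, was at 152, 144 and 148 CPM in the control libraries and 235, 226 and 239 CPM in the PM2.5 libraries. These groups lay far apart, with a change of 0.65 on the log2 scale (SE 0.044, edgeR adjusted p = 5.40e-05). ACACB, the form placed at mitochondria, was at 43.7 ± 2.55 CPM in control against 49.7 ± 1.13 CPM with PM2.5 (SD, n = 3) (log2 fold change 0.19, adjusted p = 0.0299 in edgeR), and it did not pass when control replicate 1 or 2 or PM2.5 replicate 1 was left out (edgeR adjusted p = 0.0894, 0.0994 and 0.0726). ACACB was named after its values were seen. Of 18 tested regulators 5 were higher (27.8%) and 6 lower (33.3%), beside 21.7% and 22% of all tested genes. Their median log2 fold change was -0.04. PPARA (Gene ID 5465), the receptor that switches on oxidation genes in liver, was at 58.1, 55.4 and 57.7 CPM in the control libraries and 76.8, 77.4 and 75.6 CPM in the PM2.5 libraries, with a log2 change of 0.43 (SE 0.045, adjusted p = 0.00029 in edgeR). PPARG, the adipogenic receptor, rose (0.49, adjusted p = 0.000822 in edgeR), and PPARD, the more widely expressed one, fell (-0.42, adjusted p = 0.00567 in edgeR). Their partner RXRA fell (-0.46, adjusted p = 0.00128 in edgeR). PPARGC1A, a coactivator of mitochondrial genes, was low at 0.526, 0.495 and 0.397 CPM in the control libraries and 0.197, 0.149 and 0.05204 CPM in the PM2.5 libraries. It was lower in each PM2.5 library, with a log2 ratio of -1.79 (SE 0.38, edgeR adjusted p = 0.00701), and its relative PPRC1 fell too (-0.33, adjusted p = 0.00519 in edgeR).

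Among 8 tested PPAR-responsive genes outside the members, 2 were higher (25%) and 3 lower (37.5%), beside 21.7% and 22% of all tested genes. Their median log2 fold change was -0.11. ACSL1 was higher, as given above, and UCP2, a mitochondrial inner membrane carrier, rose (0.26, adjusted p = 0.0301 in edgeR). UCP3, its muscle relative, fell from 2.71 ± 0.6302 to 1.15 ± 0.298 CPM (SD, n = 3), with a change of -1.26 on the log2 scale (SE 0.24, edgeR adjusted p = 0.00373). G0S2, an inhibitor of triglyceride lipase, fell (-0.36, adjusted p = 0.0041 in edgeR), and so did the thioesterase ACOT1 (-0.39, adjusted p = 0.0345 in edgeR). UCP2 did not pass without either control replicate 1 or 3, nor without PM2.5 replicate 2 or 3 (adjusted p in edgeR = 0.1, 0.0544, 0.0752 and 0.0793). Leaving out any library but control replicate 2 ended the ACOT1 call (edgeR adjusted p = 0.0942, 0.0937, 0.0558, 0.12 and 0.056), and it was not made with DESeq2's Wald test (adjusted p = 0.0523) or library size only (edgeR adjusted p = 0.0695). Of 5 tested ketone body genes 3 were higher (60%) and none lower, beside 21.7% and 22% of all tested genes. The median of these 5 genes was 0.41 on the log2 scale. BDH1, which converts acetoacetate to hydroxybutyrate, was among those that rose (0.47, adjusted p = 0.00103 in edgeR).

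Of 12 further genes of mitochondrial oxidation 3 were higher (25%) and 1 lower (8.33%), beside 21.7% and 22% of all tested genes. Their median was 0.08 on the log2 scale, and 1 was higher and 0 lower without PM2.5 replicate 1. The acyl-CoA thioesterase ACOT13 rose (0.43, adjusted p = 0.00231 in edgeR) and the mitochondrial thioesterase ACOT2 fell (-0.34, adjusted p = 0.0146 in edgeR). The other rises were ACAD11, an acyl-CoA dehydrogenase of longer chains (0.39, adjusted p = 0.0412 in edgeR), and ACSM3, a medium-chain acyl-CoA synthetase that stayed under 1 CPM. ACOT2 did not pass when PM2.5 replicate 1 was left out (edgeR adjusted p = 0.0553). ACAD11 and ACSM3 each lost their call without at least 4 of the 6 libraries in turn, with adjusted p up to 0.144 and 0.12. Of 30 further peroxisomal genes tested, 10 were higher (33.3%) and 3 lower (10%), 43.3% called beside 43.6% of all tested genes. Their median was 0.12 on the log2 scale. The count of 10 higher became 5 with control replicate 1 left out and 6 with either PM2.5 replicate 1 or 2 left out, and 17 when libraries were scaled by size alone. EPHX2 (Gene ID 2053), the soluble epoxide hydrolase, was at 8.03, 7.73 and 8.995 CPM in the control libraries and 12.5, 13.2 and 12.5 CPM in the PM2.5 libraries, with a log2 change of 0.62 (SE 0.079, adjusted p = 0.000663 in edgeR). NUDT12, a nudix hydrolase, and TYSND1, the protease that processes peroxisomal matrix enzymes, rose (0.49, adjusted p = 0.0065, and 0.34, adjusted p = 0.0108, both in edgeR). The nudix hydrolase NUDT19 fell (-0.39, adjusted p = 0.00177 in edgeR), as did the peroxisomal membrane channel PXMP2 (-0.29, adjusted p = 0.0126 in edgeR).

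**Figure D4:**
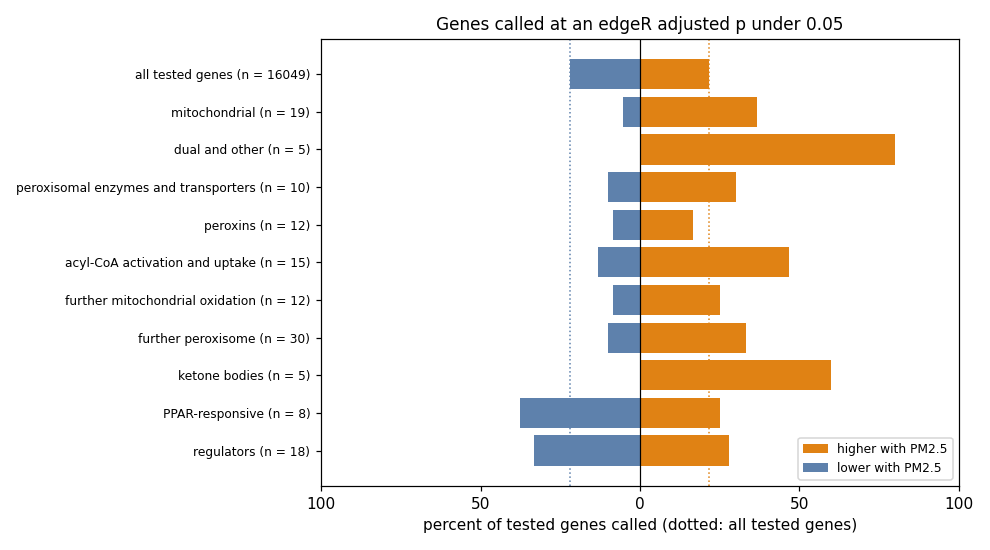
Percent of tested genes called higher (right) and lower (left) with PM2.5 at an edgeR adjusted p under 0.05, for all tested genes, the classes of members and the further lists, with the number tested in brackets and dotted lines at the shares of all tested genes. Mitochondrial genes lean to the right, with 36.8% higher and 5.26% lower, beside 21.7% and 22% of all tested genes. Peroxins have 16.7% higher and 8.33% lower, and peroxisomal enzymes and transporters 30% and 10%. Regulators have 27.8% higher and 33.3% lower.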

How the data were processed

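Stranded libraries of polyadenylated RNA were sequenced from 3 control and 3 PM2.5-treated samples of SZ95 cells. The authors deposited whole-number read counts per gene, not normalized. The submitters' processing notes name the build hg19 and, with no role given, DESeq2, StringTie 1.3.3b, HISAT2 2.0.5 and Trimmomatic 0.32, and how reads were counted is not given in the sources used here. A column name with 1 extra hyphen was read as PM2.5 replicate 1.

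The packages were edgeR 4.0.16, DESeq2 1.42.0 and limma 3.58.1, run in R 4.3.3. filterByExpr (minimum count 10, minimum total 15) kept 16049 of 27685 genes, and 7274 of the table's genes had no count in any library. TMM-scaled counts were tested two-sided with glmQLFit and glmQLFTest, treatment being the only factor, with Benjamini-Hochberg adjustment over all tested genes. The SE is the absolute log2 fold change divided by the square root of F. In simulated data for this comparison with 15886 genes, edgeR called 55 of 67 genes with a 1.5-fold change, 65 of 67 with a 2-fold change and 66 of 66 with a 4-fold change, and 19 unchanged genes. Only these genes were changed in the simulation, all drawn from genes with a mean of at least 1 CPM. They are a far smaller share than the 43.6% of genes called in the data, so the rates may differ there.

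CPM per kb used the median length of the GENCODE 29 transcripts linked to the RefSeq transcripts of a gene. Upstream sequences came from RefSeq. The members and lists were chosen with earlier results of these data known. All members are named. Values in every library are given for called members with at least 1 CPM in the higher group and the largest changes, up to 10 in each direction, for CPT1A, CPT2, SLC25A20, ACADVL, ACADM, HADHA, ACAA1, HSD17B4, PEX5 and PEX19, and for some others chosen after their values were seen. Of each further list, up to 3 called genes per direction with the smallest adjusted p are named, and the PPAR genes and PPARGC1A; some genes that this rule names are not reported here. Alternatives were DESeq2, limma-voom, edgeR's legacy fit, 3 other scalings, 2 other filters, the replicate number as a block, each library left out in turn and, chosen after seeing the data, readthrough counts added to CPT1B and AMACR.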

Additional observations from a re-analysis of the deposited data

How the results depend on the processing

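Of the 19 members called, 16 kept their call in every alternative run, and AMACR, ETFDH and PEX2 lost it in at least 1. Of the others, 12 were called in at least 1 alternative. The log2 fold change of PEX19 ran from -0.30 to 0.24 with each library left out in turn, and it turned positive only without PM2.5 replicate 3 (edgeR adjusted p = 0.00801), which holds its low value. Library size as the only scaling gave 26 members higher in place of 16, with 11 mitochondrial genes higher in place of 7, 11 peroxisomal genes higher in place of 5 and 1 peroxisomal gene lower in place of 2. It also moved the median log2 fold change of all genes from 0.004 to 0.086, a shift of all genes in the same direction. Upper-quartile factors gave 8 peroxisomal genes higher and 1 lower. With each library left out in turn, 14 to 17 members were higher and 2 to 4 lower, 6 to 8 mitochondrial genes were higher and 1 lower, and 5 to 6 peroxisomal genes were higher and 1 to 3 lower. Genes called in the whole table ran from 2712 to 3305 higher and 2613 to 3448 lower.

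The replicate numbers were checked for pairing. The deviations of same-numbered libraries correlated at -0.039, 0.1 and 0.117, and not every library correlated best with its own number, so the numbers were not used as pairs. With the replicate block, 17 members were higher and 3 lower, with 7 mitochondrial genes higher and 1 lower and 7 peroxisomal genes higher and 2 lower. PEX5 and SCP2 were then called higher (edgeR adjusted p = 0.0472 and 0.00899) and AMACR was not called (0.0548). In the whole table the block gave 3573 genes higher and 3658 lower. ACADL, ABCD2 and ACOX2 held too few counts for a difference to be detectable at this depth. The counts cannot tell reads shared by readthrough loci apart, as for CPT1B and AMACR.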
